A study of Mus musculus with 6 samples.

Results

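The genes described here are the transcription factors at the end of the canonical Wnt pathway, beta-catenin, and the complex that degrades beta-catenin. They were Tcf7, Tcf7l1, Tcf7l2, Lef1, Ctnnb1, Axin1, Axin2, Apc, Gsk3b and Csnk1a1, chosen by symbol, and every probe whose RefSeq transcript carries one of these symbols was kept. This gave 10 genes with 21 probes, of 56605 probes and 45616 genes or transcripts on the array, 22911 of them with a gene symbol.

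The samples were islet cells of Wnt4eGFPCre; mTmG pups at postnatal day 1, from mice crossed to C57BL/6J, sorted into mGFP-positive (Wnt4hi) and mGFP-negative (Wnt4low) cells. By the paper's methods, both populations came from pups with the Cre allele in Wnt4 and the mTmG reporter. In this reporter, Cre switches a membrane tdTomato to a membrane GFP. A supplementary caption of the paper instead labels the genes higher in Wnt4low as those of Wnt4eGFPCre Tg-; mTmG Tg+, and this difference is not resolved here. Each of the 3 Wnt4hi arrays (replicates 2, 3 and 4) and 3 Wnt4low arrays (replicates 1, 3 and 4) held RNA of pooled islets of 3 or 4 pups, amplified from less than a nanogram and labelled with Cy5, and values are given below in that order. The sort records whether a cell or its ancestors had activated Wnt4, was not a beta cell gate, and left every unrecombined cell type of the preparation in Wnt4low. Wnt4 itself had log2 intensities of 11.20, 10.53 and 10.77 on the Wnt4hi arrays and 9.85, 10.11 and 9.31 on the Wnt4low arrays, in the direction of the labels (log2 fold change 1.08, SE 0.27, unadjusted p = 0.00708, adjusted p = 0.212 in limma).

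Without a Wnt ligand, a cytoplasmic complex degrades beta-catenin. Axin1 and Axin2 are its scaffolds, Apc holds beta-catenin to it, and the kinases encoded by Csnk1a1 and Gsk3b phosphorylate beta-catenin, which marks it for ubiquitination. A ligand bound to a Frizzled receptor and an Lrp co-receptor halts the complex, and beta-catenin then enters the nucleus and binds TCF/LEF factors, which otherwise hold their targets silent with Tle co-repressors. Tcf7l2 is best known in the pancreas because variants near it alter the risk of type 2 diabetes. These steps are largely set at the level of protein, whereas the arrays measure RNA alone.

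TCF/LEF factors recognise a short DNA core, so the upstream windows of the factor genes are shown for reference. RefSeq windows of 250 bases before a transcription start (assembly GRCm38.p6) were held for 7 of the 10 genes, 13 windows in all, with none for Apc, Axin1 and Csnk1a1. They are printed 5′ to 3′ on the strand of the gene, for a start each of Tcf7 and Tcf7l1, whose RNA differed between the populations, and for the starts of Tcf7l2 and Lef1 that held a match. Capitals mark a match, on either strand, to CTTTGNN in which each N was A or T. The windows lie at chr11:52282596-52282845 (Tcf7, minus strand), chr6:72789046-72789295 (Tcf7l1, minus strand), chr19:55895071-55895320 (Tcf7l2, plus strand) and chr3:131156044-131156293 (Lef1, plus strand).
Tcf7, start 2: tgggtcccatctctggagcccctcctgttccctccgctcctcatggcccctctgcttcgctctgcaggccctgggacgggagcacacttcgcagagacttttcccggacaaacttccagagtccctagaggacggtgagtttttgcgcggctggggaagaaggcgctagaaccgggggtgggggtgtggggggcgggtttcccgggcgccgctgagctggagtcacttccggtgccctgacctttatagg
Tcf7l1: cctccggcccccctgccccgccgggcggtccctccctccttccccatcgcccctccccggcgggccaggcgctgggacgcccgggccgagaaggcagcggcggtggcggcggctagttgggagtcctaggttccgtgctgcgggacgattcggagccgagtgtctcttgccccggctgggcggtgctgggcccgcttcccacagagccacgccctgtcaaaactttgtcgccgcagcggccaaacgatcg
Tcf7l2, start 2: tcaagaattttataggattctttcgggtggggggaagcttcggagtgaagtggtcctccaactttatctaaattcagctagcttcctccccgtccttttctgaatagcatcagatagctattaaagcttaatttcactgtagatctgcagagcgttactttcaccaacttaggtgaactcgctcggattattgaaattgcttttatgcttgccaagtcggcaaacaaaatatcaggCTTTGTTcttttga
Lef1, start 4: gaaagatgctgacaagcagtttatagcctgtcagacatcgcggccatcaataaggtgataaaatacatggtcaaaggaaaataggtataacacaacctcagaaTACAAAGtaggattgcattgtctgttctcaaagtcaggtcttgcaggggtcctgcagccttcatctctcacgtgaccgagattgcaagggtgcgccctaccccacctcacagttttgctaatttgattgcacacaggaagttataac
The Tcf7l2 window held CTTTGTT, which began 14 bases before the start (position -14). The Lef1 window held CTTTGTA on its other strand, printed as TACAAAG with its first printed base at position -147. A match was thus present in 2 of the 13 windows (15.4%), against 14.8% of the 32851 windows of all genes. The windows of Tcf7 and Tcf7l1 held no full match. A match is a description of the letters and not a binding site, and a window before a later start can lie within a longer transcript of the same gene.

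Of the 4 TCF/LEF genes, Tcf7 and Tcf7l1 were lower in Wnt4hi than in Wnt4low cells, Tcf7l2 was lower by 1 of its 4 probes, and Lef1 was not well above background. Of beta-catenin and the 5 destruction complex genes, 0 passed the threshold. Thus 2 of the 10 genes were lower at an unadjusted p below 0.05, the threshold of the study, where 5.53% of all features were. In the other direction 0 of the 10 passed, where 5.02% of all features did. After Benjamini-Hochberg adjustment over all 45616 features, Tcf7 alone passed at 0.05 (0.438% of all features did). The arrays of both populations did not overlap for 2 genes, Tcf7 and Tcf7l1, against 16% of all features.

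**Figure D1:**
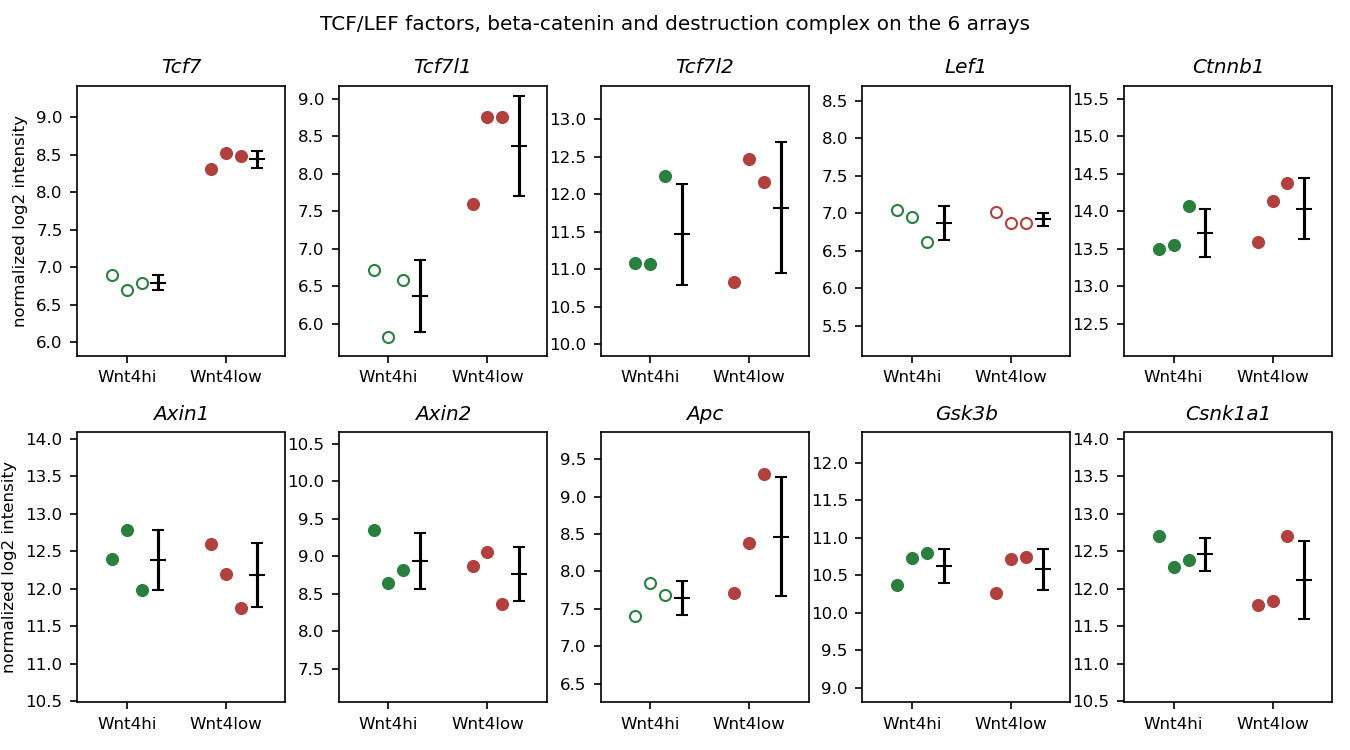
Normalized log2 intensity (vertical axes, which all span the same range of log2 units) of the probe that stands for each of the 10 genes on the 3 Wnt4hi and 3 Wnt4low arrays. Points are arrays, in order of replicate number, open where the probe was not well above background on all 3 arrays of that population, and the bars give the mean and SD. Tcf7 and Tcf7l1 separate the populations, and the other 8 genes overlap.

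Tcf7 encodes a TCF factor that is best known from T cells and is itself a target of the pathway in many tissues. Its probe A_52_P244702 (NM_009331) had normalized log2 intensities of 6.90, 6.70 and 6.79 on the Wnt4hi arrays and 8.32, 8.52 and 8.49 on the Wnt4low arrays. The 3 arrays of each population lay close together, with means of 6.79 ± 0.097 and 8.44 ± 0.11 (SD, n = 3 each), and the populations were far apart. The log2 fold change was -1.65 (SE 0.13, limma's unadjusted p = 1.37e-05, adjusted p = 0.0232). The probe was well above background on 0 of 3 Wnt4hi and 3 of 3 Wnt4low arrays, so its Wnt4hi level is limited by background. An estimated bound put Tcf7 2.16-fold or more lower in Wnt4hi cells. The bound sets the Wnt4low mean against, per Wnt4hi array, the higher of the probe's own value and the lowest value well above background. It carries no sampling error. With any of the 6 arrays left out, the adjusted p of Tcf7 rose to between 0.0537 and 0.129, and its log2 fold change stayed between -1.69 and -1.59. In those fits 0 to 5 of all features passed after adjustment, against 200 with all arrays.

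The other Tcf7 probe, A_55_P2109633, exceeded background clearly on 0 of the 6 arrays. Its log2 intensities were 6.63, 6.33 and 6.42 on the Wnt4hi arrays and 7.09, 6.88 and 7.30 on the Wnt4low arrays. They did not overlap either (log2 fold change -0.63, limma's unadjusted p = 0.00965, adjusted p = 0.233 over all probes), but differences so close to background have no firm size.

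Tcf7l1 encodes the TCF factor that acts mainly as a repressor and is known from stem cells and early embryos. Its single probe A_52_P387724 (NM_001079822) had log2 intensities of 6.72, 5.82 and 6.58 on the Wnt4hi arrays and 7.60, 8.76 and 8.75 on the Wnt4low arrays. All Wnt4low arrays were above all Wnt4hi arrays, and Wnt4low replicate 1 was more than a unit below the other Wnt4low arrays. The means were 6.37 ± 0.48 and 8.37 ± 0.67 (SD, n = 3 each), and the log2 fold change was -1.996 (SE 0.40, limma's unadjusted p = 0.00229, adjusted p = 0.128). As with Tcf7, the probe was well above background on 0 of 3 Wnt4hi and 3 of 3 Wnt4low arrays. The same kind of estimated bound was 2.05-fold lower in Wnt4hi cells. An exact two-sided permutation test over the 6 arrays gave p = 0.1 for Tcf7 and for Tcf7l1, the smallest that 3 arrays against 3 can give.

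Tcf7l2 encodes the TCF factor of the gut and pancreas, and its transcript is cut into many isoforms. Each of the 4 probes exceeded background clearly on all 6 arrays. The brightest, A_52_P146043 (NM_009333), had log2 intensities of 11.08, 11.07 and 12.24 on the Wnt4hi arrays and 10.83, 12.47 and 12.17 on the Wnt4low arrays. The populations overlapped over their whole range, with Wnt4hi replicate 4 among the high arrays and Wnt4low replicate 1 the lowest of all. The log2 fold change was -0.36 (SE 0.52, limma's adjusted p = 0.881), and with single arrays left out it ranged from -0.84 without Wnt4low replicate 1 to -0.04 without Wnt4low replicate 3.

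The probe A_55_P2030160, designed on the transcript NM_001142920, was the Tcf7l2 probe whose populations did not overlap. Its log2 intensities were 10.46, 11.60 and 11.17 on the Wnt4hi arrays and 11.72, 12.09 and 11.93 on the Wnt4low arrays, so that every Wnt4low array was higher (log2 fold change -0.83, SE 0.31, limma's unadjusted p = 0.0340, adjusted p = 0.391). The probe A_52_P566741 (NM_009333) gave -0.46 (SE 0.44), and A_55_P2143724 (NM_001142923) gave -0.30 (SE 0.27), both with overlapping arrays. All 4 probes thus had a negative fold change, and the -0.83 of the 1 that passed was not tested against those of the other 3, which share the gene and the RNA and are not replicates.

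Lef1 encodes the remaining TCF/LEF factor. Its probe A_55_P2076871 (NM_010703) had log2 intensities of 7.05, 6.95 and 6.62 on the Wnt4hi arrays and 7.01, 6.87 and 6.87 on the Wnt4low arrays, and was well above background on 0 of the 6 arrays. No level or direction can be read for Lef1 from these arrays (log2 fold change -0.05, SE 0.16).

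**Figure D2:**
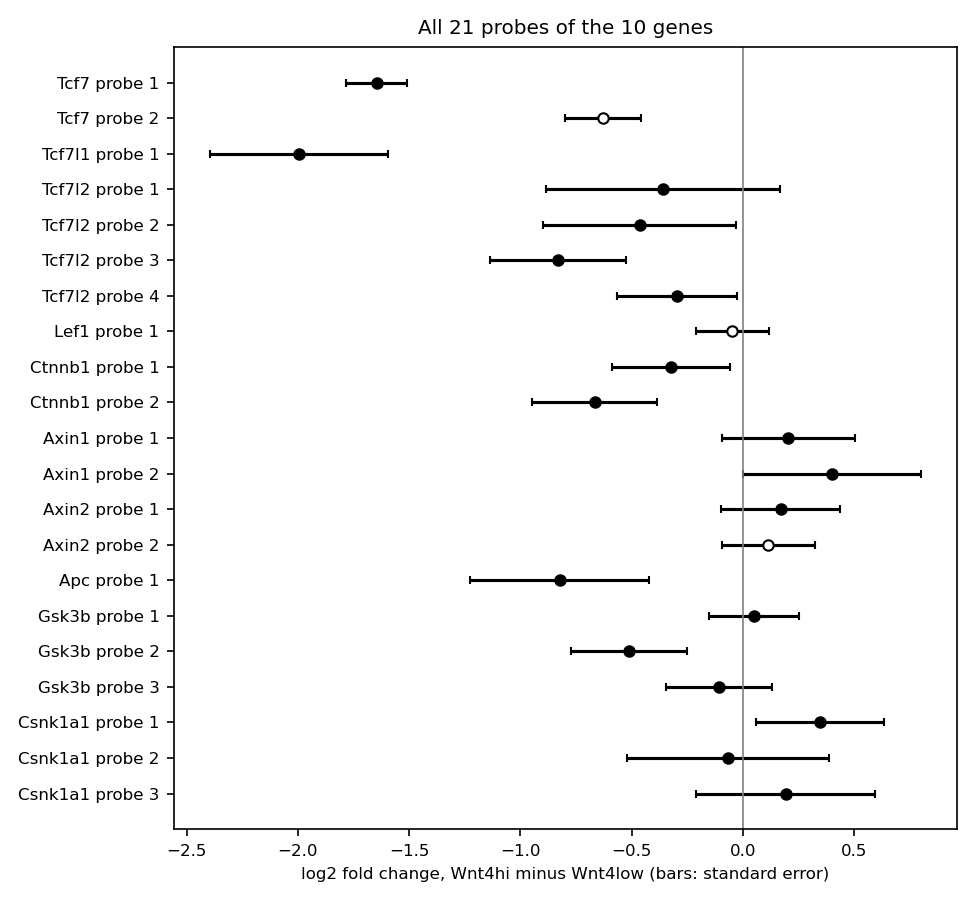
Log2 fold change of Wnt4hi over Wnt4low cells (horizontal axis) for all 21 probes of the 10 genes, with the standard error of the fit over all probes as bars. Open circles are the 3 probes that were not well above background on all 3 arrays of either population; the Tcf7l1 probe (-1.996) and the brighter Tcf7 probe (-1.65) lie farthest left, the second Tcf7 probe lies at -0.63, and the probes of Axin1 and Axin2 lie right of 0.

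Ctnnb1 encodes beta-catenin, which serves both in the pathway and at cell junctions. Its brighter probe A_52_P424585 (NM_007614) had log2 intensities of 13.50, 13.56 and 14.07 on the Wnt4hi arrays and 13.59, 14.13 and 14.38 on the Wnt4low arrays. The ranges overlapped by 1 Wnt4low array (replicate 1), and the log2 fold change was -0.32 (SE 0.26, limma's adjusted p = 0.770). It ranged from -0.56 without Wnt4low replicate 1 to -0.15 without Wnt4low replicate 4, and missed the unadjusted threshold in each of the 6 fits that left out an array. The second probe A_66_P122220 gave 10.66, 11.58 and 11.50 on the Wnt4hi arrays and 11.70, 11.92 and 12.12 on the Wnt4low arrays. On this probe all Wnt4low arrays were higher, the lowest by a small margin over the highest Wnt4hi array, and the log2 fold change of -0.67 (SE 0.28) missed the threshold (limma's unadjusted p = 0.0552).

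The scaffolds Axin1 and Axin2 had small positive fold changes on each of their probes. Axin2 is a widely used readout of the pathway because beta-catenin and TCF/LEF factors induce it. Its brighter probe A_66_P134405 (NM_015732) was well above background on all 6 arrays and gave 9.35, 8.64 and 8.82 on the Wnt4hi arrays and 8.87, 9.06 and 8.36 on the Wnt4low arrays. The highest array was Wnt4hi replicate 2 and the lowest Wnt4low replicate 4, with all others mixed between them (log2 fold change 0.17, SE 0.26, limma's adjusted p = 0.888). The other Axin2 probe, A_52_P54176, was well above background on 1 array of each population and gave 0.11 (SE 0.21). The Axin1 probes gave 0.21 (SE 0.30) for A_55_P2143209 and 0.40 (SE 0.40) for A_55_P2761970, both NM_001159598, with overlapping arrays.

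Apc, the tumour suppressor that anchors beta-catenin in the complex, was measured by A_52_P633752 (NM_007462). Its log2 intensities were 7.40, 7.84 and 7.68 on the Wnt4hi arrays and 7.72, 8.38 and 9.30 on the Wnt4low arrays, well above background on 1 of 3 Wnt4hi and 3 of 3 Wnt4low arrays. The 3 Wnt4low arrays spread over more than 1 unit, and Wnt4low replicate 1 fell among the Wnt4hi arrays. The log2 fold change was -0.82 (SE 0.40, limma's unadjusted p = 0.0846, adjusted p = 0.565). With single arrays left out it ranged from -0.41 without Wnt4low replicate 4 (limma's unadjusted p = 0.184) to -1.19 without Wnt4low replicate 1 (unadjusted p = 0.0131, adjusted p = 0.333), so the size rests on which Wnt4low arrays enter.

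The probes of the kinase Gsk3b did not share a direction. The brightest, A_51_P514412 (NM_019827), gave 10.37, 10.73 and 10.79 on the Wnt4hi arrays and 10.26, 10.72 and 10.75 on the Wnt4low arrays, which is nearly the same spread in each population (log2 fold change 0.05, SE 0.20). The others gave -0.51 (A_55_P1981415, SE 0.26, limma's unadjusted p = 0.0958) and -0.11 (A_66_P104190, SE 0.24).

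Csnk1a1, casein kinase 1 alpha, which places the priming phosphate on beta-catenin, gave 12.71, 12.29 and 12.38 on the Wnt4hi arrays and 11.79, 11.84 and 12.71 on the Wnt4low arrays on its brightest probe A_51_P453856 (NM_146087). Wnt4low replicate 4 was as high as the highest Wnt4hi array and the other Wnt4low arrays were below all of them (log2 fold change 0.35, SE 0.29, limma's adjusted p = 0.772). With single arrays left out it ranged from 0.18 without Wnt4low replicate 1 (limma's unadjusted p = 0.577) to 0.65 without Wnt4low replicate 4 (unadjusted p = 0.0169, adjusted p = 0.373), with 0.21 without Wnt4low replicate 3. It was 0.06 under the fixed replicate block, which draws on replicates 3 and 4 alone. The probes A_52_P339722 and A_55_P2735195 (XM_006526383) gave -0.07 (SE 0.45) and 0.19 (SE 0.40).

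Over the 5 destruction complex genes the median log2 fold change was 0.17, with 4 positive and Apc negative. Over all 10 genes, Lef1 included, it was -0.18, against 0.07 over all features. Of the 21 probes, 4 were lower at an unadjusted p below 0.05 in the fit over all probes (6.15% of all probes were) and 0 were higher (4.84% of all probes were). The arrays did not overlap for 5 probes, all lower in Wnt4hi, against 16.4% of all probes in either direction. After adjustment 1 probe passed, against 0.475% of all probes. The 4 probes were both Tcf7 probes, the Tcf7l1 probe and 1 of Tcf7l2. On all 6 arrays, 14 of the 21 probes were well above background, so 7 probes, among them those of Tcf7, Tcf7l1, Lef1 and Apc, had at least 1 array on which they were not.

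The other genes of the pathway were taken from 5 written lists. Of their 109 genes, 104 were well above background on at least 1 array, 5 were higher and 12 were lower in Wnt4hi cells at the unadjusted threshold, and 1 passed after adjustment. Over all features 5.02% were higher, 5.53% lower and 0.438% passed after adjustment, so the higher count lay near the share over all features, and the counts of each list below are to be read against the same shares. Their median log2 fold change was -0.01.

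Of the 27 beta-catenin partners and co-repressors, 2 were lower and 0 higher (median -0.02). Tle4, a Groucho-type co-repressor that binds TCF/LEF factors, gave 9.07, 9.81 and 9.53 on the Wnt4hi arrays and 11.72, 10.81 and 11.61 on the Wnt4low arrays. Every Wnt4low array was higher by about a unit or more (log2 fold change -1.90, limma's unadjusted p = 0.000786, adjusted p = 0.0813). Ctbp2, which encodes another co-repressor, had a log2 fold change of -1.12 (limma's adjusted p = 0.216).

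Of the 26 other destruction complex genes and regulators, 3 were lower and 0 higher (median -0.01). Fbxw11, the ubiquitin ligase adaptor that recognises phosphorylated beta-catenin, had a log2 fold change of -0.64 (limma's adjusted p = 0.286), and Csnk1e, a casein kinase 1, of -0.55 (adjusted p = 0.290), both without overlap between populations. Ppp2ca, a catalytic subunit of protein phosphatase 2A, had a log2 fold change of -0.59 (adjusted p = 0.421), and its arrays overlapped.

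Of the 22 receptors and Dishevelled genes, 2 were lower and 1 higher (median -0.24). The Frizzled receptor Fzd4 gave 9.27, 8.37 and 7.10 on the Wnt4hi arrays and 10.45, 10.86 and 10.91 on the Wnt4low arrays. Its Wnt4hi arrays spread over more than 2 units and all lay below the Wnt4low arrays (log2 fold change -2.50, limma's unadjusted p = 0.00314, adjusted p = 0.149). Fzd1 had a log2 fold change of -1.52 (limma's adjusted p = 0.172), and Dact2, which binds Dishevelled, of 0.85 (adjusted p = 0.282).

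Beta-catenin also joins cadherins to the cytoskeleton, and of 7 such adhesion partners 2 were lower and 2 higher (median 0.27). Cdh5, the cadherin of endothelial cells, gave 8.18, 7.36 and 7.81 on the Wnt4hi arrays and 11.64, 10.85 and 11.60 on the Wnt4low arrays, a log2 fold change of -3.58 (limma's adjusted p = 0.0242). It was the 1 gene of the 5 lists that passed after adjustment. The epithelial cadherin Cdh1 moved the other way, with a log2 fold change of 0.97 (limma's adjusted p = 0.434). The catenin genes Ctnnal1 and Ctnna1 had log2 fold changes of 0.93 (adjusted p = 0.315) and -0.56 (adjusted p = 0.380).

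Of 27 transcriptional targets, 3 were lower and 2 higher (median 0.07), and 5 (Cdx1, Cdx2, Rnf43, T and Wif1) were not well above background on any array. Ccnd1, cyclin D1, gave 8.61, 8.15 and 9.25 on the Wnt4hi arrays and 10.55, 10.44 and 10.95 on the Wnt4low arrays, with every Wnt4low array above every Wnt4hi array (log2 fold change -1.98, limma's unadjusted p = 0.000590, adjusted p = 0.0710). Myc had a log2 fold change of -1.26 (limma's adjusted p = 0.126). Tcf4, a basic helix-loop-helix gene that is distinct from Tcf7l2 although that gene's protein was once called TCF4, had -1.85 (adjusted p = 0.0667). Prox1, a homeobox gene of the embryonic pancreas, and Nkd2, an inhibitor of Dishevelled, were higher, by 0.93 (adjusted p = 0.230) and 0.45 (adjusted p = 0.429). Of the 27 targets, 0 passed after adjustment.

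**Figure D3:**
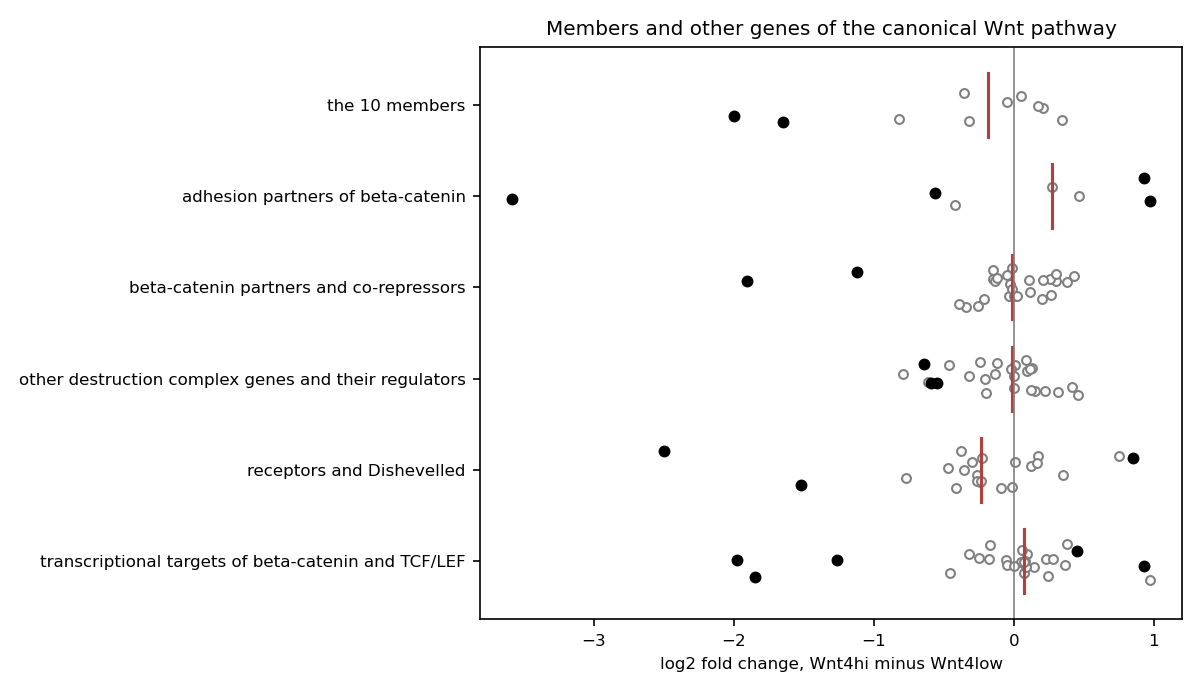
Log2 fold change of Wnt4hi over Wnt4low cells (horizontal axis) for the 10 genes and for the 5 lists of other pathway genes. Each circle is a gene, filled where its unadjusted p was below 0.05, and the vertical bars are medians; most genes lie near 0, with Cdh5, Fzd4, Tcf7l1 and Ccnd1 far to the left.

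Markers of several cell types also differed between the populations. All 18 endothelial markers had negative fold changes, 16 at the unadjusted threshold and 10 after adjustment, with a median log2 fold change of -3.46. Their summed intensity was 10430, 8716 and 7349 on Wnt4hi replicates 2, 3 and 4 and 108738, 51253 and 65087 on Wnt4low replicates 1, 3 and 4. Among the genes with their brightest probes, Plvap had a log2 fold change of -4.10 (limma's adjusted p = 0.0242), Pecam1 of -3.04 (adjusted p = 0.0361) and Egfl7 of -2.15 (adjusted p = 0.0616). Tek and Tie1, receptors of endothelial cells, were well above background on 0 of 3 Wnt4hi arrays. By the same kind of estimated bound they were 7.59-fold and 12.2-fold or more lower there. The other 16 endothelial markers were well above background on at least 1 Wnt4hi array.

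Within Wnt4low, replicate 1 had the highest endothelial sum and the lowest Tcf7 (8.32, against at most 8.52) and Tcf7l1 (7.60). It also had the lowest mesenchymal, myeloid, beta cell, alpha and other endocrine, and acinar sums of Wnt4low. In the Schwann, lymphocyte, ductal and proliferation sums it was not the lowest. The order of 3 arrays was not tested and is given as a description. The sums of mesenchymal and pericyte markers were 74092, 42716 and 45418 on Wnt4hi and 90382, 99565 and 118866 on Wnt4low arrays. Of these 12 markers 11 had negative fold changes and 7 were lower at the unadjusted threshold (median -1.18). The genes with their brightest probes were Col3a1 (log2 fold change -1.18, limma's adjusted p = 0.419), Acta2 (-0.21, adjusted p = 0.809) and Col1a2 (-1.06, adjusted p = 0.476). Of 13 macrophage and myeloid markers 12 had negative fold changes and 6 were lower at the unadjusted threshold (median -0.87). Their sums (72767 to 80068 on the Wnt4hi arrays and 84756 to 108420 on the Wnt4low arrays) were made up largely of Itgam, whose own arrays overlapped (log2 intensities of 15.67, 15.95 and 16.04 on the Wnt4hi arrays and 15.74, 15.92 and 16.27 on the Wnt4low arrays, log2 fold change -0.09). The sums of these and of Schwann and neural crest markers (5163 to 7363 on the Wnt4hi arrays and 8193 to 15804 on the Wnt4low arrays) did not overlap and were higher in Wnt4low.

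The summed intensity of 16 T cell and lymphocyte markers overlapped between the populations (11911 to 12661 on the Wnt4hi arrays and 11400 to 12334 on the Wnt4low arrays). That sum was made up largely of probes bright in both, such as Cd4 (mean log2 intensity 11.69 in Wnt4hi and 11.35 in Wnt4low), Cd247 (10.65 and 10.97) and Cd8b1 (10.35 and 10.26). It therefore tells little about dimmer markers. Of the 16 markers, 10 had positive and 6 negative fold changes (median 0.07), 15 were well above background on at least 1 array, and Ms4a1 on none. Ptprc, the common leukocyte antigen, was the 1 marker that passed, lower in Wnt4hi (log2 fold change -2.43, limma's unadjusted p = 0.00985, adjusted p = 0.242). In these sorted bulk samples, fewer cells of a type and less RNA per cell cannot be told apart. The part of endothelial, mesenchymal, myeloid, Schwann, lymphoid, endocrine or proliferating cells in the differences of Tcf7 and Tcf7l1 was not tested.

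**Figure D4:**
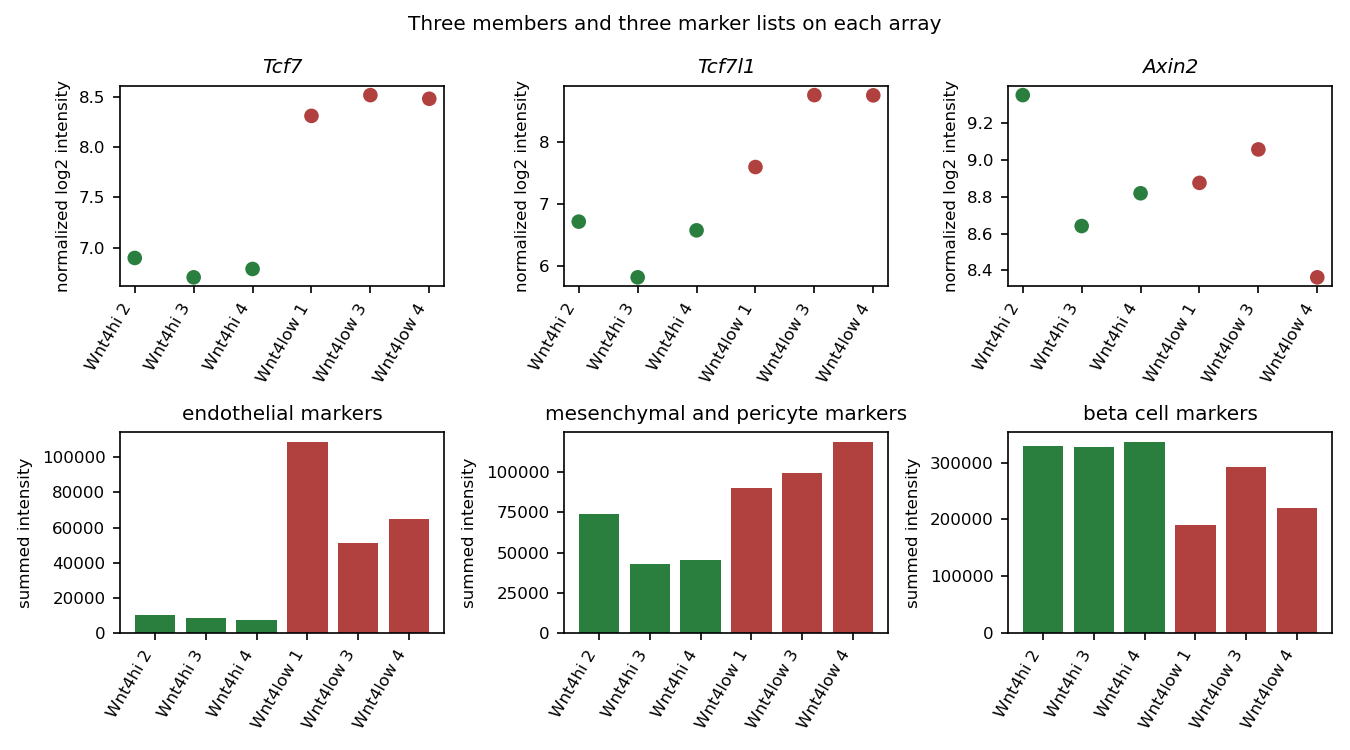
Normalized log2 intensity of Tcf7, Tcf7l1 and Axin2 (upper row) and summed normalized intensity of the endothelial, mesenchymal and pericyte, and beta cell marker lists (lower row) on each of the 6 arrays, labelled by population and replicate number. Tcf7, Tcf7l1 and the marker sums separate the populations, with the beta cell sum higher in Wnt4hi, while Axin2 does not. Of Wnt4low, replicate 1 has the highest endothelial sum and the lowest mesenchymal sum, beta cell sum, Tcf7 and Tcf7l1.

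Across the 6 arrays, the log2 values of the genes can be compared as a description, in which all points share a slide and the populations differ in many genes at once. Tcf7 and Tcf7l1 had a Pearson r of 0.94, and Tcf7l2 and Ctnnb1 of 0.913, while Ctnnb1 and Axin1 had -0.904. For Tcf7 and Tcf7l1 the 3 Wnt4hi values were not well above background, so these likenesses rest in part on background values and on the gap between the populations. Among 16152 genes well above background on all 6 arrays, those most like Tcf7 were Slfn5 (r = 0.998), Ifitm1 (r = 0.995), an interferon-induced membrane protein gene, and Axl (r = 0.994), a receptor tyrosine kinase gene. With Tcf7, 173 genes had an r above 0.95. Tcf7l1 was most like Tent4b (r = 0.989), Gjc1 (r = 0.988), a connexin gene, and Kcne4 (r = 0.988), a potassium channel subunit gene. Tcf7l2, whose values overlapped between the populations, was most like 5830417I10Rik (r = 0.987), Mafa (r = 0.981), a transcription factor gene of beta cells, and Brwd1 (r = 0.979). For Lef1 the most alike were Htra2, Lars2 and Scgb1b27 (r = 0.989, 0.987 and 0.985), but the Lef1 probe did not stand well above background on any array.

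The comparison was repeated under 20 alternative settings, of which 6 each left out an array and 1 used the authors' table. The unadjusted call of Tcf7 and of Tcf7l1 held in all 20. The log2 fold change of Tcf7 ranged from -2.42 to -1.14 and that of Tcf7l1 from -2.97 to -1.70. Tcf7 passed after adjustment in 11 of the 20, with 0 of the 6 that left out an array among them, and Tcf7l1 in 0. Tcf7l2 kept a negative sign (-0.84 to -0.04), with 1 setting past the unadjusted threshold, that in which the probe with the smallest p stood for the gene.

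**Figure D5:**
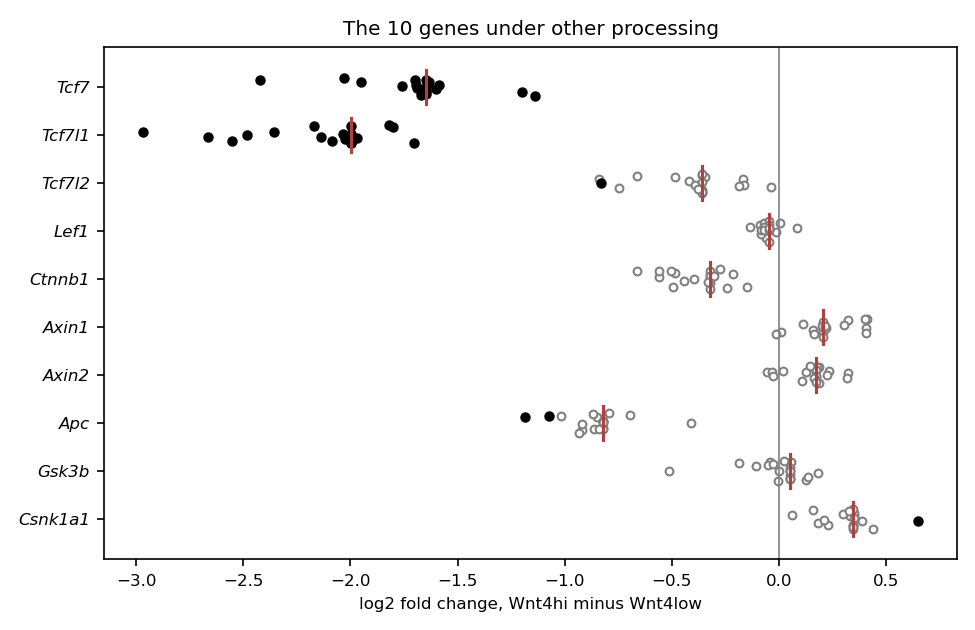
Log2 fold change of Wnt4hi over Wnt4low cells (horizontal axis) of each of the 10 genes under the alternative settings. Each circle is a setting, filled where the unadjusted p was below 0.05, and the vertical bars give the values reported above; all settings of Tcf7 and Tcf7l1 lie left of -1, and the circles of Gsk3b, Axin1, Axin2 and Lef1 lie on both sides of 0.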

How the data were processed

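RNA of sorted P1 islet cells was hybridised to 6 single-color Agilent mouse arrays, all on 1 slide and from 1 scan. The authors deposited the scanner software's output (Agilent Feature Extraction, version 9.1 per the submitters' processing notes and 12.0.1.1 per the file headers), which holds red-channel intensity per spot, not normalized, and its background flags. A second deposited file holds the authors' normalized log2 values, used as an alternative only. The paper describes normexp correction and quantile normalization for its arrays, but the rule by which probes entered that file is not stated. Each array was a pool of pups, and no source used here says whether arrays of the same number share pups; 70.5% to 79.5% of 59305 spots per array were well above background and precision is limited by having 3 arrays per population.

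Median intensities were used because the columns held give no mean. Following the study's methods, they were corrected with normexp (offset 50) and normalized by quantiles in limma (version 3.58.1, R 4.3.3); outlier spots were left out (50 to 141 per array) and 0 spots were saturated. The probe with the highest mean stood for a gene, so a gene's p comes from the fit over genes and that of any further probe from the fit over all probes. Of 27845 RefSeq-type names, 25126 matched the RefSeq gene table. lmFit and eBayes compared the populations with Benjamini-Hochberg adjustment. The scripts were tested on simulated data. The members and gene lists were chosen with earlier results of these data known. Named were all members, up to 4 passing genes per pathway list without overlap between populations, at most the 3 markers with the brightest probes per list (brightness does not rank transcripts of different genes), and the 3 genes most like each TCF/LEF gene. Ppp2ca, Nkd2, Tek, Tie1, Ptprc, Ghrl, Spp1 and the genes listed as not well above background were named after their values were seen.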

Additional observations from a re-analysis of the deposited data

How the results depend on the processing

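Of the member results, Tcf7, Tcf7l1, Tcf7l2, Ctnnb1, Apc and Csnk1a1 kept their direction under every alternative that held them. The fold change of Gsk3b reversed to -0.0425 with the processed signal, -0.0073 with cyclic loess, -0.053 in the authors' table, -0.19 with the mean of all probes and -0.51 with the probe of smallest p, and ranged from -0.11 to 0.18 with 1 array left out. Axin2 reversed to -0.0546 in the authors' table and ranged from -0.0342 to 0.32 with 1 array left out, Lef1 from -0.135 to 0.0828 and Axin1 from -0.0126 to 0.409; the causes were not tested. The counts of member genes and probes past the adjusted threshold fell from 1 to 0 under an ordinary t-test without limma's eBayes step. They also fell to 0 under a fixed replicate block and without any 1 array. The count of member genes fell to 0 in the authors' table as well. With 1 array left out, member genes or probes higher in Wnt4hi numbered 0 to 1 (1 without Wnt4low replicate 4) and other pathway genes higher in Wnt4hi 3 to 5 (main count 5; 3 without Wnt4hi replicate 4 or Wnt4low replicate 1). Replicate numbers 3 and 4 are shared by the populations, with 4 pups in each pool numbered 3 and 3 in each pool numbered 4. Deviations of same-numbered arrays correlated at -0.033 and 0.156 over features, against -0.232 to 0.18 for arrays of unlike number. These values cannot settle whether the numbers mark pairs, and the main fit was unpaired. The fixed replicate block draws its fold changes from replicates 3 and 4 alone, as only these numbers occur in both populations. With it, Tcf7 had -1.76 (limma's adjusted p = 0.0788), Tcf7l1 -2.55 (adjusted p = 0.0614) and Apc -1.08 (unadjusted p = 0.0253 in limma). In that fit 1 member probe and 2 other pathway genes were higher. Over all features the adjusted count was 200, and 505 of 32006 with dim probes filtered out, 0 with the t-test or the fixed block (1867 and 2789 lower at an unadjusted p below 0.05), 406 in the authors' table, 326 with the probe of smallest p and 0 to 5 with 1 array left out. The authors' table held 7 of the 10 members, and its column for Wnt4hi replicate 2 correlated more with the scanner values of Wnt4hi replicates 3 (0.889) and 4 (0.885) and of Wnt4low replicate 3 (0.882) than with its own (0.871), so the array behind that column is not settled. Levels of Tcf7 and Tcf7l1 in Wnt4hi and of Lef1 in both populations are limited by the background.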

Other observations

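Lists of cells that are no part of the comparison of TCF/LEF factors and the destruction complex also differed between the populations. Beta cell markers had summed intensities of 327985 to 336163 on the Wnt4hi arrays and 190372 to 292872 on the Wnt4low arrays, and 9 of 10 had positive fold changes, 6 at the unadjusted threshold. Ins2 rose by 0.56 on the log2 scale (limma's unadjusted p = 0.0226, adjusted p = 0.348), while Ins1 had 0.43 (adjusted p = 0.543) and Mafa -0.05 (adjusted p = 0.95). Of 9 markers of alpha and other endocrine cells, 5 were higher and 2 lower (87976 to 138512 on the Wnt4hi arrays and 39974 to 74759 on the Wnt4low arrays), with Ppy at 1.22 (limma's adjusted p = 0.0844), Gcg at 1.28 (adjusted p = 0.588) and Sst at -0.56 (adjusted p = 0.354). The 1 marker of this list that passed after adjustment was Ghrl, the ghrelin gene, at 2.10 (adjusted p = 0.0498). Ductal and epithelial markers summed to 35231 to 44454 on the Wnt4hi arrays and 21713 to 27284 on the Wnt4low arrays. Of these 10, 7 had positive and 3 negative fold changes, with 3 higher and 1 lower at the unadjusted threshold (median 0.21). Those with the brightest probes were Krt18 at 1.09 (limma's adjusted p = 0.155), Krt8 at 1.25 (adjusted p = 0.235) and Epcam at 1.19 (adjusted p = 0.371), and the lower marker was Spp1, osteopontin, at -2.16 (limma's adjusted p = 0.184).

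All 10 proliferation markers had negative fold changes, 6 at the unadjusted threshold (11742 to 16057 on the Wnt4hi arrays and 18278 to 30047 on the Wnt4low arrays), with Pcna at -0.83 (limma's adjusted p = 0.207), Mki67 at -1.38 (adjusted p = 0.402) and Aurkb at -0.17 (adjusted p = 0.819). Acinar markers summed to 6628, 10718 and 8301 on the Wnt4hi arrays and 6386, 32562 and 23141 on Wnt4low replicates 1, 3 and 4, so that Wnt4low replicate 1 was the lowest of all arrays in this list.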
